A study of Mus musculus with 32 samples.

Results

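Aminoacyl-tRNA synthetases are the enzymes that join each amino acid to its transfer RNA, and their transcripts were followed here through the RNA that an antibody against N6-methyladenosine (m6A, a methyl mark on RNA adenosines) pulled down from 4 mouse organs. The genes were chosen by symbol alone: a letter for the amino acid followed by "ars", with or without a 1 or 2, plus the phenylalanine enzyme's Farsa and Farsb and the fused glutamate and proline enzyme Eprs. The rule found 37 of the 27179 genes in the table, 20 cytosolic and 17 mitochondrial (names ending in 2), and all 37 had levels high enough to be tested. Lars2, the mitochondrial leucine enzyme, took percents of all counts and is described apart from the other 36.

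Brain, heart, kidney and liver were each represented by flash-frozen tissue and by tissue fixed in formalin and embedded in paraffin (FFPE), 8 groups in all. The labels name no strain, genotype, sex or age, and give no treatment other than the preservation. Each of the 8 groups is 1 column of the table, called a library below, although the labels list 2 runs per group. It is not stated whether both runs were merged in a column. Input RNA was not analysed here, so abundance and methylation cannot be told apart in any level below, and in whole organs neither can fewer cells of a type and less RNA per cell.

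In animal cells, cytosolic synthetases charge the transfer RNAs used by cytosolic ribosomes, and a second set, made from nuclear genes and imported, charges the transfer RNAs of mitochondria. Gars and Kars serve both compartments, and glutamine reaches mitochondrial transfer RNA through an amidotransferase instead of a synthetase of its own. Several cytosolic synthetases are held in a multisynthetase complex with scaffold proteins, and several synthetase genes are known targets of ATF4, the transcription factor of the amino acid response.

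Libraries held 9603050 to 21523379 gene counts, of which 50.4 to 79.7% belonged to 4 ribosomal transcripts, the cytosolic Rn45s and Rn18s and the mitochondrial mt-Rnr1 and mt-Rnr2. All 15 neuron, 15 cardiomyocyte, 15 nephron and 15 hepatocyte markers were called higher in brain, heart, kidney and liver, respectively. Frozen heart also held more neuron marker signal (summed log2 level 6.29, with 15 of 15 markers counted) than FFPE heart (5.19) or frozen liver (2.76). Xist had 2693 to 6685 counts in the FFPE libraries and 5 to 26 in the frozen ones, and the Y-linked Ddx3y had 43 to 125 in the FFPE and 294 to 700 in the frozen libraries. Transcripts of both kinds were thus counted in every FFPE library, and preservation cannot be told apart from the animals. A level is the deposited log2 of normalized counts, relative to a scaled library size, and levels are compared for 1 gene across libraries, not between genes, because transcript lengths were not used here. An organ difference is the mean log2 level of its frozen and FFPE library minus that of the other 3 organs, with the standard error (SE) of a limma fit, and it is called at a Benjamini-Hochberg adjusted p under 0.05 over 14864 genes. With 1 library per group these p-values measure how alike frozen and FFPE tissue behaved across organs, and not the spread between animals.

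**Figure D1:**
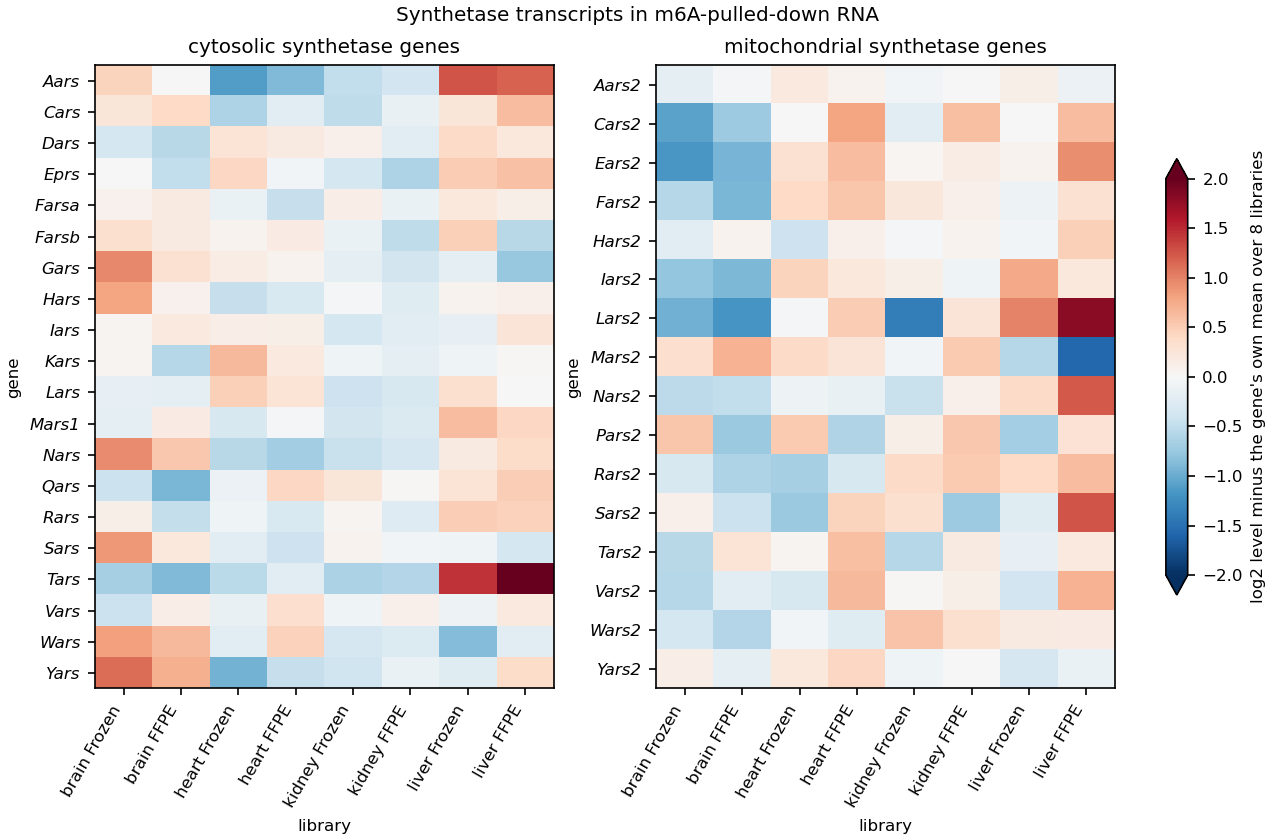
Level of each of 36 of the 37 synthetase genes in each of the 8 libraries, as log2 level minus the gene's own mean over the libraries (red above, blue below, colours end at 2 either way), with cytosolic genes on the left and mitochondrial genes on the right. On the deposited scale Tars and Aars are red in both liver libraries, and Cars2, Ears2, Fars2 and Iars2 are blue in both brain libraries.

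In brain, 5 cytosolic synthetase transcripts were higher than in the other organs and 3 cytosolic and 4 mitochondrial ones were lower. Those called higher were Yars (tyrosine), Nars (asparagine), Wars (tryptophan), Gars (glycine) and Sars (serine), all outside the multisynthetase complex. Those called lower were Tars (threonine), Qars (glutamine) and Dars (aspartate) among the cytosolic genes, and Ears2, Cars2, Iars2 and Fars2, which charge mitochondrial glutamate, cysteine, isoleucine and phenylalanine tRNAs. The brain background was 30.2% of all genes tested called higher and 26.4% called lower, so 5 of 37 higher and 7 of 37 lower are not more than the background.

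Nars stood at log2 5.31 in frozen and 4.92 in FFPE brain and between 3.67 and 4.74 in the other 6 libraries. Both brain libraries thus lay above every other, by a fitted difference of 0.99 ± 0.17 (SE, adjusted p = 0.0010). Yars reached 4.50 and 4.10 in brain against 2.44 to 3.75 elsewhere, a difference of 1.22 ± 0.23 (adjusted p = 0.0019). Wars reached 3.70 and 3.53 against 2.01 to 3.34, a difference of 0.98 ± 0.24 (adjusted p = 0.0079). The same separation held for Gars, at 4.72 and 4.06 against 2.99 to 3.90, and for Sars, at 5.23 and 4.58 against 3.96 to 4.44, and for both the frozen library was the higher of the brain pair.

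Iars2 showed the reverse pattern, with 3.36 in frozen and 3.24 in FFPE brain against 4.05 to 4.90 in the other libraries, and was lower by −1.12 ± 0.16 (adjusted p = 0.00041). Ears2 lay at 0.31 and 0.55 in brain and at 1.51 to 2.40 elsewhere, a difference of −1.40 ± 0.32 (adjusted p = 0.0055). Cars2 lay at 0.67 and 1.02 against 1.51 to 2.54 (difference −1.19 ± 0.29, adjusted p = 0.0067), and Fars2 at 1.97 and 1.63 against 2.44 to 3.10 (difference −0.99 ± 0.24, adjusted p = 0.0072). All 4 genes therefore had their brain libraries below the other 6. Here and in the other organs, such separations are those of genes called from the same values, so they add no support. How many of all genes separate in this way was not counted. Among the cytosolic genes, Tars (difference −1.03), Qars (−0.90) and Dars (−0.61) were below the other 6 libraries in both brain libraries too. For Tars the margin was small, with frozen and FFPE values of 3.05 and 2.83 in brain, 3.07 and 3.12 in kidney and 3.17 and 3.48 in heart. Its liver values of 5.16 and 5.80 raised the mean that brain was set against.

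As groups, the cytosolic genes had a median brain difference of 0.18 and the 16 mitochondrial genes other than Lars2 one of −0.53, against 0.07 over all genes tested on the deposited scale. A single factor per library moves all 3 medians alike, so the gaps between them do not depend on that choice. Of those 16, 15 lay below 0 in brain, and the exception, Mars2, stood at 0.68 ± 0.37 and did not pass the test. The 8 members of the multisynthetase complex (Dars, Eprs, Iars, Kars, Lars, Mars1, Qars and Rars) had 7 below 0 and 2 called lower. The 12 cytosolic genes outside it had 10 above 0, with 5 called higher and 1 lower. The complex thus had 25% called lower, near the 26.4% of all genes. Outside it 41.7% were called higher and 8.33% lower, beside 30.2% and 26.4% of all genes. These counts are those of the deposited scale, and whether the complex differs from the other cytosolic genes was not tested.

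The direction of single brain differences depended on how libraries were scaled. Scaling by total gene counts raised the brain difference of every gene by 1.22 and gave 17 members higher and 0 lower, and scaling by counts outside the ribosomal transcripts and Lars2 raised it by 0.38 and gave 11 higher and 5 lower. Quantile normalization gave 5 higher and 14 lower, and centring on medians 5 higher and 16 lower. Over all genes, total counts gave 8234 higher and 1558 lower of 14864, and counts outside the ribosomal transcripts and Lars2 6106 and 3052. Quantile normalization gave 3807 and 4675 of 14789 genes, and centring 3792 and 4866 of 14864. Without the frozen brain library the adjusted p was 0.0826 for Gars, 0.109 for Sars, 0.154 for Wars, 0.0513 for Yars and 0.0739 for Dars. Without the FFPE brain library it was 0.0817 for Dars, 0.169 for Qars, 0.0567 for Tars, 0.0954 for Cars2, 0.0648 for Ears2 and 0.115 for Fars2.

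**Figure D2:**
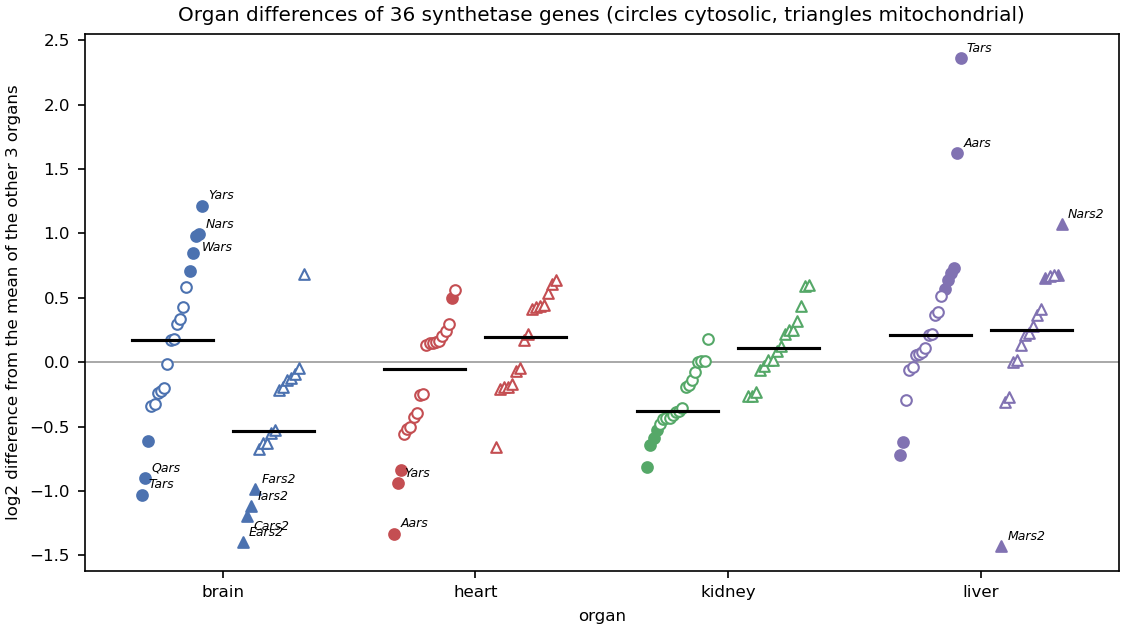
Fitted log2 difference of each organ from the mean of the other 3 for 20 cytosolic (circles) and 16 mitochondrial (triangles) synthetase genes without Lars2. Filled symbols were called at adjusted p under 0.05, bars are medians, and names are given for called genes beyond 0.9 either way. The 15 mitochondrial genes below 0 in brain and the liver values of Tars and Aars stand out on the deposited scale, and scaling by total gene counts would add 1.22 to every brain value and take 1.20 from every liver value.

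In liver, Tars and Aars, the cytosolic threonine and alanine enzymes, were far above the other organs, and 4 further cytosolic and 3 mitochondrial members were called higher. Tars had log2 5.16 in frozen and 5.80 in FFPE liver against 2.83 to 3.48 in the other libraries. Its difference of 2.36 ± 0.20 (adjusted p = 3.07e-05) was the largest of any member in any organ comparison. Aars had 6.02 and 5.93 in liver against 3.64 to 5.19 elsewhere, a difference of 1.62 ± 0.17 (adjusted p = 8.12e-05). In both genes the liver libraries lay above all others, with brain next for Aars.

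Eprs, at 5.86 and 5.95 in liver against 4.74 to 5.78, was higher by 0.73 ± 0.15 (adjusted p = 0.0048). Mars1 (methionine), at 3.64 and 3.43 against 2.66 to 3.19, was higher by 0.69 ± 0.20 (adjusted p = 0.022), and Rars (arginine), at 3.60 and 3.57 against 2.64 to 3.22, by 0.64 ± 0.20 (adjusted p = 0.027). These 3 belong to the multisynthetase complex, of which 7 of 8 members lay above 0 in liver on the deposited scale. The 3 are 37.5% of the complex, beside 20.1% of all genes called higher, and the complex was not tested as a set. Cars (cysteine) was called higher at 0.57, but its liver values of 3.11 and 3.48 overlapped the brain values of 3.10 and 3.26. The mitochondrial genes called higher were Nars2 (1.07), Rars2 (0.68) and Iars2 (0.65), of which only Nars2, at 2.49 and 3.35 against 1.60 to 2.21, did not overlap the other libraries.

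Called lower in liver were Mars2, Wars and Gars. Mars2, the mitochondrial methionine enzyme, had 1.03 in frozen and 0.04 in FFPE liver against 1.56 to 2.30 elsewhere, a difference of −1.43 ± 0.37 (adjusted p = 0.013), with 6 counts behind the FFPE value. Wars (−0.72) and Gars (−0.62) each had 1 liver value within the range of the other organs. The liver background was 20.1% of all genes tested called higher and 27.2% called lower, beside 9 and 3 of the 37 members. The median difference was 0.21 for cytosolic and 0.25 for mitochondrial members without Lars2, against −0.18 over all genes.

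Scaling by total gene counts lowered every liver difference by 1.20 and gave 1 member higher and 15 lower, and scaling by counts outside the ribosomal transcripts and Lars2 lowered it by 0.64 and gave 2 higher and 12 lower. Tars remained called higher under both, and Aars stood at 0.42 (adjusted p = 0.355) under the first. Quantile normalization gave 10 higher and 3 lower, and centring on medians 12 higher and 1 lower. Over all genes, total counts gave 1143 higher and 8628 lower of 14864, and counts outside the ribosomal transcripts and Lars2 1814 and 7253. Quantile normalization gave 3158 and 4061 of 14789 genes, and centring 3567 and 3448 of 14864. Without the FFPE liver library 4 members were called, and Mars2 (adjusted p = 0.153), Nars2 (0.170), Rars (0.209) and Eprs (0.0776) were among those lost. Without the frozen liver library 7 were called, and Mars1 stood at adjusted p = 0.190.

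In heart, Aars, Yars and Nars were lower than in the other organs. Aars had log2 3.64 in frozen and 3.87 in FFPE heart against 4.26 to 6.02 elsewhere, a difference of −1.33 ± 0.17 (adjusted p = 0.00044). Yars had 2.44 and 2.93 against 2.99 to 4.50 (difference −0.94 ± 0.23, adjusted p = 0.013), and Nars had 3.81 and 3.67 against 3.92 to 5.31 (difference −0.83 ± 0.17, adjusted p = 0.0052). All 3 had both heart libraries below the other 6, a separation in the same values that gave the calls. Lars, the cytosolic leucine enzyme, was called higher at 0.50 ± 0.17 (adjusted p = 0.047), but its heart values of 4.29 and 4.10 overlapped the frozen liver value of 4.14.

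The share called in heart was 1 of 37 higher and 3 of 37 lower, beside 15.9% and 18.1% of all genes tested. The median heart difference was −0.06 for cytosolic and 0.20 for the 16 mitochondrial members, against −0.15 over all genes, and none of the 16 was called. Without the FFPE heart library Nars stood at −0.78 and Yars at −1.10, and neither kept its call. The frozen heart library held more neuron marker signal than the FFPE one, which also held some. Without the frozen library Nars stayed called and Yars, at −0.78, did not. Lars lost its call in 11 of 17 alternatives, among them those without the frozen (adjusted p = 0.232) or the FFPE heart library (0.176). Scaling by total gene counts lowered every heart difference by 0.54 and gave 0 higher and 3 lower. Scaling by counts outside the ribosomal transcripts and Lars2 gave 0 and 8, quantile normalization 6 and 3, and centring on medians 4 and 3. Over all genes these gave, in the same order, 1107 and 3508, 2019 and 3393, 2976 and 2381, and 2819 and 2160. The total was 14789 genes for quantile normalization and 14864 otherwise. The part of the neuron markers in the heart values was not tested.

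In kidney, 4 cytosolic members were called lower and none higher, beside 13.5% and 16.1% of all genes tested. They were Tars (−0.82 ± 0.20, adjusted p = 0.016), Eprs (−0.65 ± 0.15, 0.014), Aars (−0.59 ± 0.17, 0.028) and Nars (−0.52 ± 0.17, 0.044). Tars had 3.07 and 3.12 in kidney, within the range of 2.83 to 5.80 elsewhere. Its liver values of 5.16 and 5.80 raised the mean that kidney was set against, while both brain values were below those of kidney. Both kidney values of Aars and Nars also lay within the range of the other organs. For Eprs the frozen kidney value of 5.00 lay within that range, and the FFPE kidney value of 4.74 was the lowest of the 8 libraries. Of 20 cytosolic members 16 lay below 0 in kidney (median −0.38), and of 16 mitochondrial ones 11 lay above 0 (median 0.11), against 0.00 over all genes. With the frozen or the FFPE kidney library left out, 0 members were called. Scaling by total gene counts raised every kidney difference by 0.52 and gave 0 calls. Scaling by counts outside the ribosomal transcripts and Lars2 raised it by 0.40 and gave 2 higher and 0 lower. Quantile normalization gave 2 lower and centring on medians 5 lower. Over all genes these gave, in the same order, 2822 higher and 1013 lower, 4224 and 1307, 2651 and 1998, and 2233 and 2236. The total was 14789 genes for quantile normalization and 14864 otherwise.

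Of the 37 members, 21 were called in at least 1 organ, 14 cytosolic and 7 mitochondrial. The share of all genes called in at least 1 organ was not counted. In brain alone 30.2% of all genes tested were called higher and 26.4% lower, so the 21 cannot be read as many. The 16 never called were Farsa, Farsb, Hars, Iars, Kars and Vars among the cytosolic genes and 10 of the mitochondrial ones, Lars2 included. Of 32 calls of a member in an organ, 3 held under every alternative that was run: Nars higher in brain, Aars lower in heart and Tars higher in liver. How many calls of all genes held in this way was not counted. Annotated neighbours overlap some members, and whether strand was used in counting is not stated. Aars shares 3974 bases with Ddx19b, Farsb 2332 with Sgpp2 and Mars1 71 with Ddit3, so reads there cannot be told apart without strand.

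A ratio of 2 genes in 1 library does not depend on the scaling, so cytosolic genes were set against the mitochondrial gene of the same amino acid. Leucine was left to the account of Lars2, Gars and Kars have no separate partner, and Eprs was paired with both Ears2 and Pars2 and Fars2 with both Farsa and Farsb, which gave 16 pairs that share some genes and are the ones used here. The ratio was higher in brain than in the other organs in 13 of 16 pairs, and the median difference over the 16 was 0.999 on the log2 scale. In 8 of the 16 both brain libraries lay above all 6 others, beside 23.0% of all ordered pairs of tested genes. The 8 pairs were those for cysteine, glutamate, isoleucine, asparagine, tryptophan and tyrosine and both phenylalanine subunits.

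The log2 ratio of Nars to Nars2 was 3.72 in frozen and 3.29 in FFPE brain and 1.39 to 2.25 in the other libraries. That of Iars to Iars2 was 0.57 and 0.84 in brain and −1.20 to −0.23 elsewhere. That of Cars to Cars2 was 2.43 and 2.25 against 0.10 to 1.37, and that of Wars to Wars2 2.33 and 2.39 against 0.11 to 1.85. In all 4 pairs the lower of the 2 brain values was above the highest value of the other organs. In the other 8 pairs, those for histidine, threonine and methionine among them, the brain values overlapped those of other organs.

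In liver 3 pairs lay above all other libraries, those for threonine, alanine and methionine, beside 15.6% of all ordered gene pairs. Tars to Tars2 reached 2.92 in frozen and 3.19 in FFPE liver against 0.14 to 1.23, Aars to Aars2 3.60 and 3.76 against 1.16 to 3.08, and Mars1 to Mars2 2.61 and 3.40 against 0.60 to 1.11. On the deposited scale the methionine ratio moved in both genes, with Mars1 called higher and Mars2 called lower. Which gene moved depends on the scaling: Mars1 stood at −0.51 with total gene counts and at 0.05 outside the ribosomal transcripts and Lars2. Mars2 had 20 counts in frozen and 6 in FFPE liver. In heart the alanine, tyrosine and Farsa to Fars2 ratios lay below all other libraries, 3 of 16 beside 10.0% of all ordered gene pairs. In kidney the ratio was lower than in the other organs in 15 of 16 pairs, but only the arginine ratio, at 0.37 and −0.08 against 0.55 to 1.28, lay below all others, 1 of 16 beside 8.62%. None of these ratios was tested, since their genes are the ones fitted above.

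**Figure D3:**
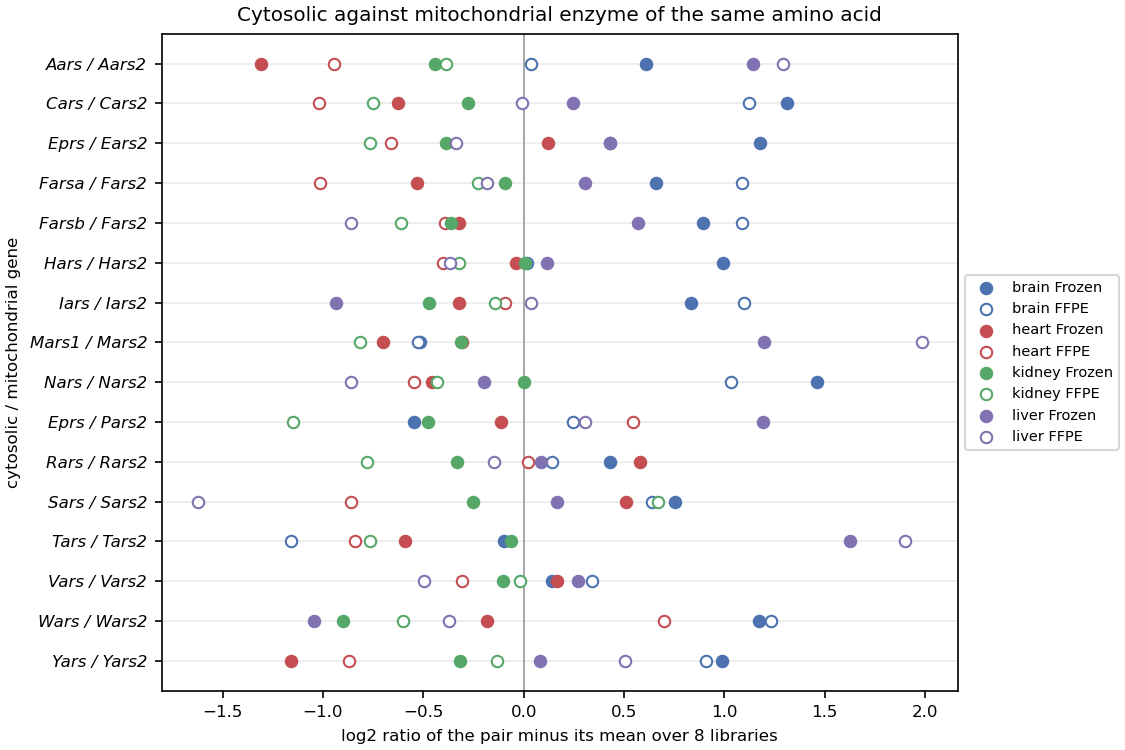
Log2 ratio of the cytosolic to the mitochondrial synthetase of the same amino acid in each library, minus the pair's mean over the 8 libraries, for 16 pairs (filled points frozen, open points FFPE, coloured by organ). Both brain points lie to the right of all others in 8 pairs, and both liver points do in the alanine, methionine and threonine pairs.

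The medians of the classes within a library come from the same levels as the fitted differences, so they add no support to them. In frozen and FFPE brain the median centred level of the cytosolic members exceeded that of the 16 mitochondrial ones by 0.44 and 0.68. In heart it was below by −0.17 and −0.29, while the kidney gaps were −0.29 and −0.39. In liver the gap was 0.25 in frozen and −0.09 in FFPE tissue, so only there did the sign differ between preservations.

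Promoter sequence was available for 27 of the 37 members in the RefSeq table for GRCm38.p6, as windows from 250 bases before to 50 after the annotated start. The core of the amino acid response element, TGATGCAA on either strand, occurs in 4 of these 27 windows (14.8%), in 1.03% of all 27025 genes' windows and in 0.731% of the 11492 tested genes' windows. All 4 belong to cytosolic genes, of 13 cytosolic and 14 mitochondrial members with a window. Those of Yars, Iars and Tars are shown, so that the bases around the match can be read, 5′ to 3′ on the gene's strand with the match or its reverse complement in capitals, and the fourth is not shown.

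Yars, chr4:129189895-129189924, plus strand: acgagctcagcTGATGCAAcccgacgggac

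Iars, chr13:49682126-49682155, plus strand: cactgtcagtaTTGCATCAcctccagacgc

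Tars, chr15:11399655-11399684, minus strand: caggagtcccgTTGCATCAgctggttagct

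The match begins 15 bases before the window's start site in Tars, and 8 bases after it in Iars and 4 in Yars. For Yars that site lies downstream of the first base of the whole gene entry, 129189734, so its match is inside the annotated gene. The E-box CACGTG occurs in 5 of the 27 windows (18.5%, beside 8.09% of all genes and 11.3% of the tested genes). The ETS core CCGGAAG occurs in 9 (33.3%, beside 9.93% of all genes and 17.6% of the tested genes). The cyclic AMP response element TGACGTCA was in none of the 27 windows, beside 2.03% of all genes and 3.36% of the tested genes. A match is a run of letters and no evidence of binding.

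Other genes of the pathway came from lists chosen with earlier results of these data known. Of 28 tested ATF4 targets other than synthetases, 10 were called higher and 11 lower in liver, and 9 higher and 8 lower in brain. The liver background was 20.1% and 27.2%, and the brain counts of 32.1% and 28.6% lay near the brain background of 30.2% and 26.4%. In liver, Atf4 itself was higher by 0.59 on the deposited scale, but stood at −0.62 with scaling by total gene counts and at −0.05 with scaling outside the ribosomal transcripts and Lars2. Also higher in liver were Atf5 (4.00), a related transcription factor, and the cystathionine enzyme Cth (6.23). The asparagine synthetase Asns (−2.85) and the serine enzymes Psat1 (−4.89) and Phgdh (−2.46) were lower. In brain Asns (4.97), Psat1 (4.30) and Phgdh (3.60) were higher and Atf5 (−1.79) was lower. The list thus split in both organs, with the serine and asparagine enzymes on the side opposite to Atf5.

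Of 16 mitochondrial translation factors tested, 7 were called lower and 0 higher in brain, with a median of −0.67 against 0.07 over all genes on the deposited scale, where scaling by total gene counts would add 1.22 to both. Tufm, the mitochondrial elongation factor Tu, had 2.23 in frozen and 1.65 in FFPE brain against 3.22 to 3.87 elsewhere, a difference of −1.60 ± 0.19 (adjusted p = 0.00017), and the elongation factor Gfm1 was lower by −1.46 ± 0.16 (adjusted p = 9.77e-05). The 7 are 43.8% of the list, beside 26.4% of all genes. In heart 6 of the 16 were called higher (37.5%, beside 15.9% of all genes) and 1 lower (6.25%, beside 18.1%). Of 19 genes for processing or modifying mitochondrial tRNA, 1 was higher and 5 lower in brain, and the 5 are 26.3%, close to the background.

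Of the 3 complex scaffold genes, Aimp1, Aimp2 and Eef1e1, only Eef1e1 was called, higher in brain by 1.52 ± 0.47 (adjusted p = 0.022). It is 33.3% of that list, near the 30.2% of all genes called higher in brain. Of the 3 amidotransferase subunits that make mitochondrial glutaminyl-tRNA, Gatb was lower in brain (−1.77) and higher in liver (0.93), Qrsl1 was lower in liver (−1.15) and Gatc was not called. Of 8 cytosolic elongation factors, 2 were higher and 3 lower in brain (25% and 37.5%, beside 30.2% and 26.4% of all genes). Eef1a2, the form known from neurons and muscle, was higher in brain (4.84) and heart (5.59), and Eef1a1 was lower in both (−0.87 and −1.26). With scaling by total gene counts Eef1a1 in brain stood at 0.35 and Gatb in liver at −0.27, so both directions depended on the scaling. Of 7 tested synthetase-like and tRNA editing genes, Dtd1 was higher and Prorsd1 lower in brain (14.3% each, beside 30.2% and 26.4% of all genes). On the deposited scale Prorsd1 and Ptrh2 were higher in liver (28.6%, beside 20.1%). Tarsl2 was higher in heart and lower in kidney (14.3% each, beside 15.9% and 13.5%).

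Between FFPE and frozen tissue no member was called, and the background was 0.00673% of all genes called higher in FFPE tissue and 0% called lower. At an unadjusted p under 0.05 there were 4 members: Tars2 (0.63 ± 0.20), Vars2 (0.62 ± 0.23), Cars2 (0.65 ± 0.25) and Gars (−0.37 ± 0.16), with limma adjusted p from 0.177 to 0.262, and voom precision weights also gave 0 calls. These are 10.8% of the members, beside 18.6% of all genes tested with an unadjusted p under 0.05. The median difference, FFPE minus frozen, was −0.08 for cytosolic and 0.07 for mitochondrial members without Lars2, against −0.07 over all genes. On the deposited scale Cars, Vars, Cars2, Ears2, Hars2, Tars2 and Vars2 were higher in FFPE tissue in 4 of 4 organs, and Dars, Gars, Rars, Sars, Iars2 and Wars2 were lower in 4 of 4. These are 18.9% and 16.2% of the members, beside 13.7% of all genes each way. Scaling by total gene counts added 0.49 in brain and 0.35 in heart to every FFPE minus frozen value and added −0.63 in kidney and −0.66 in liver, and none of these 13 genes then kept 1 sign in all 4 organs. With centring on medians all 13 kept their sign in 4 of 4 organs, beside 12.1% of all genes higher and 15.6% lower in 4 of 4. With scaling outside the ribosomal transcripts and Lars2, only Ears2, Hars2 and Vars2 of the 13 did not keep 1 sign. The share of all genes there was 10.1% higher and 17.8% lower in 4 of 4. The single-organ signs below are those of the deposited scale.

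Within single organs the differences are values of 1 library against 1, with 95% exact intervals that cover counting error only. In brain, 15 of 20 cytosolic members were lower in FFPE tissue, with 10 intervals below 0 and 2 above. Their median was −0.31 against −0.08 over all genes, of which 6544 of 14864 were higher in FFPE brain. Intervals were not taken over all genes, so the interval counts have no background. Hars (−0.70), Gars (−0.66) and Sars (−0.66) were the furthest down and Vars (0.56) the furthest up. In liver 12 of 16 mitochondrial members were higher in FFPE tissue (median 0.38 against −0.01 over all genes), with Sars2 at 1.51 and Vars2 at 1.08. In heart 10 of 16 were (median 0.25 against 0.01). Of all 14864 genes, 7371 were higher in FFPE liver and 7525 in FFPE heart. Sars2 and Pars2 rest on as few as 11 and 8 counts in a library, and their intervals span over 1 on the log2 scale.

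**Figure D4:**
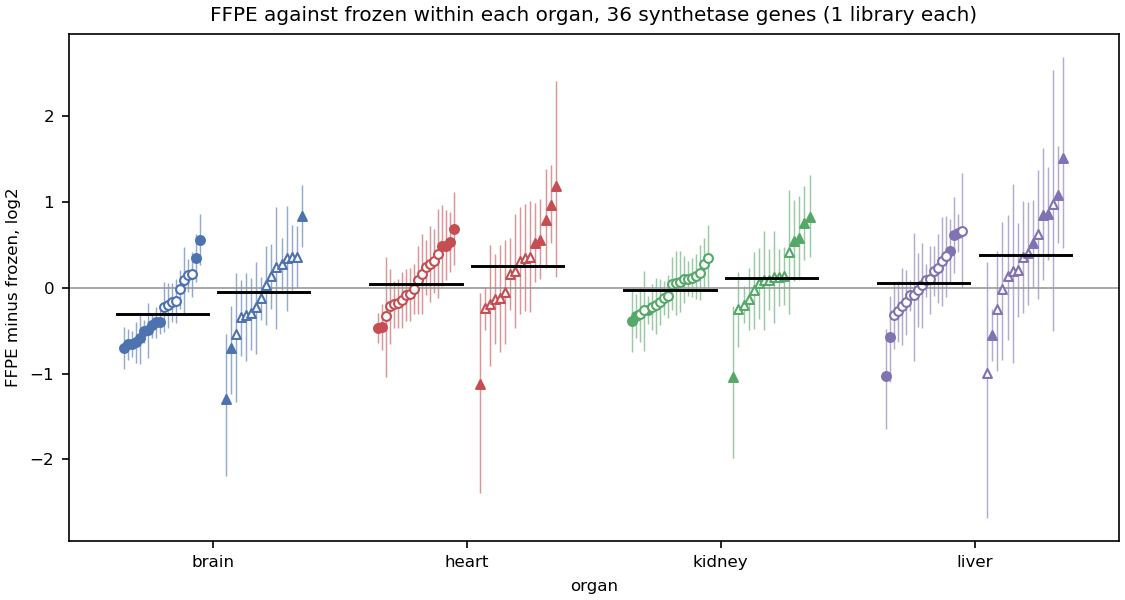
FFPE minus frozen log2 level of each of 36 synthetase genes within each organ (circles cytosolic, triangles mitochondrial), with 95% exact counting intervals as lines and class medians as bars; filled symbols have an interval that excludes 0. Most cytosolic genes lie below 0 in brain, and most mitochondrial genes lie above 0 in liver.

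Lars2 charges the leucine transfer RNA of mitochondria and lies on chromosome 9 at 123366927 to 123462675 (GRCm38.p6). Its counts were of another order than those of its relatives: 228747 to 635683 per library, 33.4 to 196 times the summed counts of the other 36 members. It took 1.70% (95% Wilson interval 1.70 to 1.71%) of all gene counts in frozen kidney, the lowest library, and 4.07% (4.06 to 4.08%) in FFPE liver, the highest, while the other 36 together took 0.0208 to 0.0742%. It ranked 5 among all genes in the FFPE libraries, below only the 4 ribosomal transcripts, and 6 in the frozen ones, where 1 gene with no symbol was also above it. Lars, the cytosolic leucine enzyme, had 89 to 434 counts.

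The share of Lars2 was 2.24% in frozen brain and 2.69% in FFPE brain. It was 1.78% in frozen and 3.31% in FFPE heart, 1.70% in frozen and 3.44% in FFPE kidney, and 3.65% in frozen and 4.07% in FFPE liver. The share was thus higher in FFPE tissue in each organ. On the deposited log2 scale frozen brain stood at 13.78 and FFPE brain at 13.55, frozen heart at 14.70 and FFPE heart at 15.24, frozen kidney at 13.35 and FFPE kidney at 14.99, and frozen liver at 15.73 and FFPE liver at 16.55, so there FFPE brain was lower than frozen brain. Both liver libraries were above the other 6 on that scale.

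The fitted liver difference was 1.87 ± 0.88 (adjusted p = 0.115) and the brain difference −1.43 ± 0.88 (adjusted p = 0.199), neither called. The liver difference passed with voom precision weights (adjusted p = 0.0012), without the variance trend (0.018), with no filter (0.038) and with a stricter filter (0.012), and the brain difference with the first 2 and the last of these (0.0028, 0.031 and 0.035). Over all alternatives the adjusted p ran from 0.0012 to 1 in liver and from 0.0028 to 1 in brain. The upper end is that of quantile normalization, which could not test Lars2 between organs. Lars2 ranked 5 in every FFPE and 6 in every frozen library, so that method set each of its organ differences to 0. The heart (0.32) and kidney (−0.75) differences were not called.

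Among the 4465 genes with a mean log2 of at least 3, the 5 whose levels were most like those of Lars2 over the 8 libraries included a gene with no symbol (Pearson r = 0.970), Rn45s, the ribosomal RNA precursor (0.959), Rn18s, the small ribosomal subunit's RNA (0.953), and Mtch2, a protein of the outer mitochondrial membrane (0.950). These correlations describe 8 libraries that share the scaling of each column. As shares of counts, which have no such factor, Lars2 correlated with Rn45s (r = 0.787, Spearman rho = 0.833) and less with mt-Rnr2 (r = −0.396), where shares of 1 total are tied to each other.

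Per 100 counts of Rn45s, frozen libraries had 5.06 (brain), 5.30 (heart), 4.41 (kidney) and 6.76 (liver) counts of Lars2, and FFPE libraries had 7.61, 8.25, 7.61 and 7.24 in the same order of organs. Every FFPE library lay above every frozen one, and the range over all 8 was 1.87-fold, while Lars2 per 100 counts of mt-Rnr2 ran from 6.22 to 40.2. Of all genes tested 0.195% had a count per Rn45s count that was higher in all FFPE than in all frozen libraries. This ratio was chosen after its values were seen and has no test. The only annotated gene that overlaps Lars2 is a long noncoding RNA, Gm46137, which has no row in the table. Whether reads of ribosomal RNA were counted for Lars2 was not tested.

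**Figure D5:**
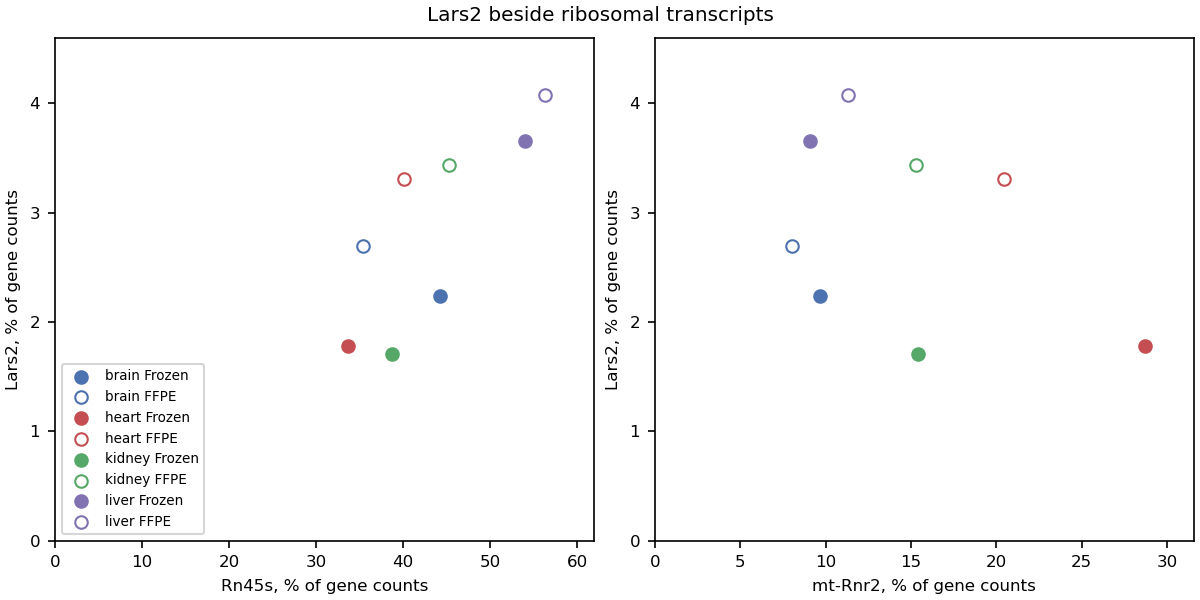
Lars2 as a percent of all gene counts against Rn45s (left) and mt-Rnr2 (right) as percents of the same counts, 1 point per library (filled frozen, open FFPE, coloured by organ). The share of Lars2 runs from 1.70 to 4.07% and is highest in the 2 liver libraries, which also have the most Rn45s.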

How the data were processed

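RNA pulled down with an m6A antibody from 4 mouse organs, frozen or FFPE (fixed in 10% formalin), was sheared for 20 min and made into total RNA libraries with a ribosomal depletion kit, per the labels' protocols. HISAT2, featureCounts, limma and mm10 are named without versions in the submitters' processing notes. The values are log2 normalized counts that the authors deposited, 1 column for each of the 8 libraries. The numbers fit a log2 CPM with 0.5 counts added and a scaled library size. Turned back into counts, 100.0% came out whole within 0.001 (relative to 10000 counts for larger ones). That the columns are m6A libraries is taken from the table's name. A second table, for another RNA mark, has 8 columns that match no sample listed, and it was left out.

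Genes with log2 above 0 in at least 2 libraries were fitted with limma (additive terms for organ and preservation, 3 residual degrees of freedom, eBayes with a trend). Data simulated from this same model, with changes set only between FFPE and frozen tissue, were fitted too. They cannot test the model itself or the organ differences. Shares of counts have Wilson intervals, and within-organ differences have exact binomial ones, at 95% and for counting error only. The members and gene lists were chosen with earlier results of these data known. Every member could be named, but a few results are not reported here. Given in full were Lars2, the called members with the largest differences (up to 6 each way per comparison) and pairs of 1 amino acid, besides called list genes and the 5 genes most like Lars2. The alternatives were 4 other scalings, 2 added counts, 2 filters, no trend, voom weights and leaving out libraries. Gene positions and promoter windows came from RefSeq tables (GRCm38.p6), in which all 37 members had an entry. The software was limma 3.58.1 in R 4.3.3, and Python 3.11.15 with pandas 2.3.3, scipy 1.17.1, numpy 2.4.6 and, for figures, matplotlib 3.10.9.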

Additional observations from a re-analysis of the deposited data

Results flagged for a closer look

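Within-organ differences of 4 members went opposite ways in different organs beyond their counting intervals. These are values of 1 FFPE library minus 1 frozen library on the deposited log2 scale, and whether the organs differ was not tested. How many of all genes do the same was not counted. With scaling by total gene counts Lars2 was higher in FFPE tissue in all 4 organs (0.27 in brain), Yars stood at 0.091 in brain and −0.045 in liver and Qars at 0.00050 in brain, while Sars2 kept its signs in heart, kidney and liver.

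Lars2 was lower in FFPE brain (−0.23) and higher in FFPE heart (0.54), kidney (1.64) and liver (0.82). Qars was lower in FFPE brain (−0.49) and higher in FFPE heart (0.53). Yars was lower in FFPE brain (−0.40) and higher in FFPE heart (0.49) and liver (0.61). Sars2 was higher in FFPE heart (1.19) and liver (1.51) and lower in FFPE kidney (−1.04), with as few as 11 counts in a library.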

How the results depend on the processing

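No paired analysis was possible because each group has 1 column and the columns carry no run number. For the other scalings, the counts over all genes stand beside those of the members in the organ paragraphs above. Members called in brain (12) numbered 21 with centring on medians, 19 with quantile normalization and 7 to 15 with a library left out. In heart (4) they numbered 7 with centring, 9 with quantile normalization, 8 with scaling outside the ribosomal transcripts and Lars2, 7 with the stricter filter, 2 without the trend and 1 to 6 with a library left out. In kidney (4) they numbered 0 without the trend or with scaling by total counts, 2 with quantile normalization or scaling outside the ribosomal transcripts and Lars2, and 0 to 4 with a library left out. In liver (12) they numbered 6 without the trend and 4 to 11 with a library left out. FFPE against frozen tissue gave 0 calls under every alternative run.

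Scaling by total gene counts turned the brain differences of Dars (0.61), Qars (0.32), Tars (0.19), Cars2 (0.027), Fars2 (0.23) and Iars2 (0.10), the heart differences of Lars (−0.044) and Lars2 (−0.22), and the liver differences of Cars (−0.63), Eprs (−0.48), Mars1 (−0.51), Rars (−0.57), Iars2 (−0.55), Nars2 (−0.13) and Rars2 (−0.53). Scaling outside the ribosomal transcripts and Lars2 turned Cars in liver (−0.065). Both add a constant to all genes of an organ. Outside the ribosomal transcripts, Lars2 took 6.02, 8.79, 4.96 and 13.6% of the counts of frozen brain, heart, kidney and liver and 5.42, 11.8, 12.6 and 19.9% of those of their FFPE counterparts. Of 569 recomputed gene values, 440 kept direction and call, and 15 turned. Few counts limit Mars2, Pars2 and Sars2 most, each with a library of 11 counts or fewer.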
